A study of Mus musculus with 2 samples.

Results

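The semaphorins, their plexin receptors and the neuropilin co-receptors were followed in single-nucleus RNA-seq of embryonic mouse neocortex. The group holds 30 genes, chosen by symbol: 6 class 3, 6 class 4, 2 class 5, 4 class 6 and 1 class 7 semaphorins, 9 plexins and 2 neuropilins, out of 33938 genes in the gene table. The samples were 1 library of nuclei labelled MEN1-NCKO and 1 labelled MEN1-F/F, the genotypes given for the gene of menin. The labels do not spell out NCKO, and the Cre driver, the deleted part of Men1, the embryonic age and the number of embryos per library are not used here, since the labels leave them out. Each label has 1 library and hence no replicate spread, so no test was run and no p-value is given. Every difference below is between these 2 libraries.

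Semaphorins are guidance cues that are secreted (class 3) or held in the membrane (classes 4 to 7). Plexins are their receptors and pass the signal to small GTPases through a cytoplasmic GAP domain. Most class 3 semaphorins need a neuropilin, Nrp1 or Nrp2, as the ligand-binding partner of an A-type plexin, whereas Sema3e binds plexin D1 directly. In the developing forebrain these proteins steer cortical axons, dendrites, radially migrating neurons and interneurons on their way from the ganglionic eminences.

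After filtering, 9807 NCKO nuclei held 41319262 UMIs and 6130 F/F nuclei held 26824000 UMIs, with medians of 3579 and 3664.5 UMIs per nucleus. Joint clustering without the 30 genes gave 53 clusters, of which 42 could be named from markers. Classes are written as "-like" because they rest on rebuilt names. Markers of striatal or LGE-derived neurons (from the lateral ganglionic eminence) defined 1121 NCKO and 722 F/F nuclei, so by their markers the nuclei were not neocortical alone. Men1 itself had 13.6 CPM in NCKO and 10.2 CPM in F/F nuclei (561 and 274 UMIs), a ratio of 1.33 (1.15 to 1.54), and was thus not lower in the library labelled NCKO. A 3' tag outside the deleted part does not check a deletion. Levels are UMIs per 1000000 UMIs of a library and class (CPM), with exact 95% Poisson intervals in parentheses, and intervals of ratios are exact conditional binomial ones. Both cover counting error only. Levels of a gene are compared across classes and libraries, not between genes, since nuclear UMIs were not scaled by gene length.

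Over 17 classes, all named classes except endothelial-like nuclei (50 NCKO and 3 F/F), 18 of the 30 genes had their highest level in the same class in both libraries. The number was between 14 and 18 under the alternatives of processing, and lowest with nuclei thinned to 2000 UMIs. For 6 genes, Sema5b, Sema6d, Plxna2, Plxna4, Nrp1 and Nrp2, the Poisson interval of that class lay clear of the next in both libraries. The same cluster defines a class in both, and the genes were left out of the clustering, but genes that vary with them were not, so the order is a description.

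**Figure D1:**
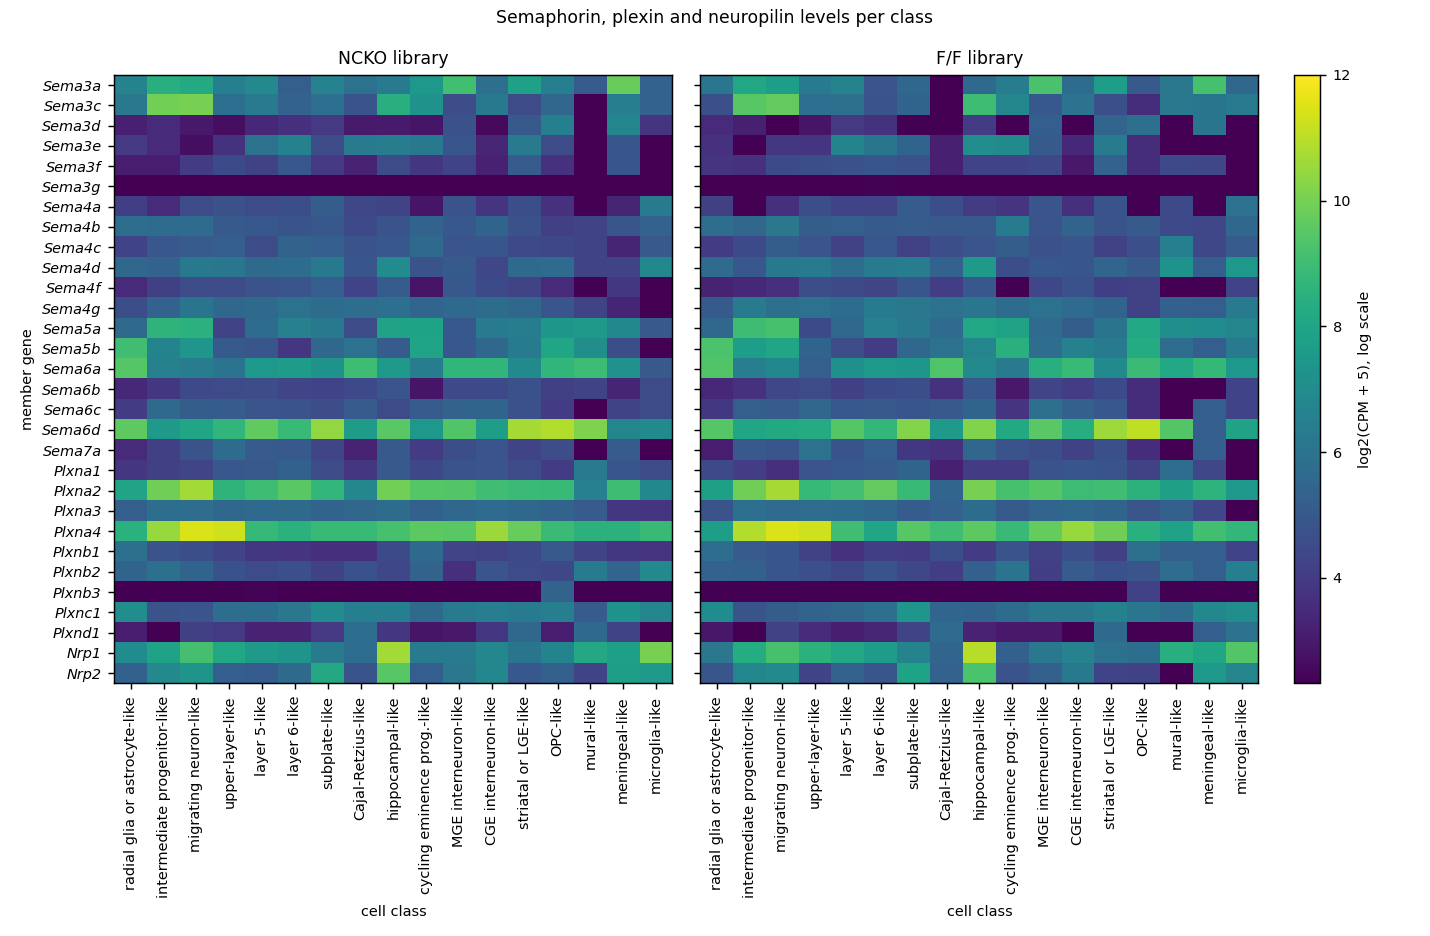
Level of each of the 30 genes (rows) in 17 classes (columns) as log2(CPM + 5), with the NCKO library on the left and the F/F library on the right. The bright cells of Plxna4 and Plxna2 lie in migrating neuron-like nuclei, those of Sema6d in oligodendrocyte precursor-like (OPC-like) and striatal-like nuclei and those of Nrp1 in hippocampal-like nuclei, in both libraries.

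Among the secreted class 3 ligands, Sema3c was high in newborn excitatory cells and Sema3a in MGE-derived interneurons. Sema3c, a ligand for neuropilin-plexin complexes, had 1022 CPM (948 to 1099) in NCKO and 809 CPM (733 to 890) in F/F migrating neuron-like nuclei. Intermediate progenitor-like nuclei, named for the precursors of excitatory neurons, followed with 982 and 703 CPM, within counting error of the migrating ones. The classes shared markers. The migrating neuron marker list summed to 11900 and 12300 CPM in intermediate progenitor-like and to 10230 and 8282 CPM in migrating neuron-like nuclei. Hippocampal-like nuclei had 338 and 506 CPM of Sema3c, while upper-layer-like nuclei had 52.5 and 53.5 CPM. Within the upper-layer-like class Sema3c was high in cluster 35, whose leading genes include Unc5d and Slc17a6 beside Sema3c itself, with 863 CPM in NCKO and 711 CPM in F/F nuclei. Sema3a, which repels many axons through Nrp1, had 530 CPM (505 to 556) and 584 CPM (551 to 618) in NCKO and F/F MGE-derived interneuron-like nuclei, cells from the medial ganglionic eminence. CGE-derived interneuron-like nuclei, from the caudal eminence, had 53.7 and 48.9 CPM, so the interneuron classes lay apart in both libraries. Cluster 4 of the MGE-derived class alone held 24.8% of all NCKO and 29.9% of all F/F UMIs of Sema3a, in 6.0% and 4.6% of the kept nuclei. Meningeal-like nuclei, few in number, had 850 (728 to 987) and 570 (399 to 789) CPM of Sema3a.

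No class 3 gene had a class clear of the next in both libraries. Sema3e, the plexin D1 ligand, was highest in layer 6-like nuclei of the NCKO library, at 91.1 CPM, and in hippocampal-like nuclei of the F/F library, at 129 CPM, with 8.24 and 9.09 CPM in NCKO and F/F upper-layer-like nuclei. Sema3f, an Nrp2 ligand, reached 29.1 and 36.3 CPM in striatal-like nuclei. Sema3d reached 104 and 63.3 CPM in meningeal-like and 84.6 and 55.2 CPM in OPC-like nuclei. Sema3g had 4 UMIs in NCKO nuclei, all 4 in endothelial-like nuclei, and 1 UMI in F/F nuclei.

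Class 4 semaphorins, transmembrane ligands that mostly act on B-type plexins, showed no class that stood apart in both libraries. Sema4d was highest in hippocampal-like nuclei, with 123 and 179 CPM in NCKO and F/F, and next in microglia-like nuclei with 110 and 173 CPM. Sema4a was highest in microglia-like nuclei at 73.2 and 57.8 CPM. Sema4b, Sema4c, Sema4f and Sema4g each had their highest level in a different class in NCKO than in F/F, between 32.0 and 62.2 CPM in the NCKO library and between 25.8 and 84.5 CPM in the F/F library. The value of 84.5 CPM was that of Sema4c in F/F mural-like nuclei and rested on 5 UMIs.

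Of the class 5 and class 6 ligands, Sema5b and Sema6d had a class clear of the next in both libraries. Sema5b was highest in radial glia or astrocyte-like nuclei, the stem cells of the ventricular zone and early glia, with 517 CPM (484 to 551) in NCKO and 608 CPM (563 to 656) in F/F nuclei, against 9.35 and 11.3 CPM in layer 6-like nuclei. Sema5a was highest in intermediate progenitor-like nuclei of the NCKO library (387 CPM) and in migrating neuron-like nuclei of the F/F library (577 CPM), and lowest of all 17 classes in upper-layer-like nuclei, at 14.6 and 17.4 CPM. Sema6a, a ligand of plexins A2 and A4, had 692 and 649 CPM in radial glia or astrocyte-like nuclei. The 50 NCKO and 3 F/F endothelial-like nuclei had 1637 and 2154 CPM of Sema6a, and Cajal-Retzius-like nuclei, early neurons of the cortical surface that secrete Reelin, had 510 and 637 CPM. Sema6d, which binds plexin A1 and plexin A4, had 1865 CPM (1758 to 1976) and 2124 CPM (1959 to 2298) in OPC-like nuclei and 1671 and 1523 CPM in striatal-like nuclei. In upper-layer-like nuclei it had 404 and 307 CPM, and its level ran from 70.2 CPM in cluster 34 to 684 CPM in cluster 9 of the NCKO library. Sema6b and Sema6c stayed under 60 CPM in each of the 17 classes.

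Sema7a, the GPI-anchored member that signals through integrins and plexin C1, was highest of the 17 classes in upper-layer-like nuclei, with 48.4 CPM in NCKO and 56.7 CPM in F/F nuclei, against 27.2 and 31.7 CPM in layer 6-like nuclei. The interval of the next class overlapped it in both libraries. That class was meningeal-like in NCKO, at 29.6 CPM (10.9 to 64.5), and hippocampal-like in F/F, at 40.3 CPM (26.1 to 59.4). The 50 endothelial-like NCKO nuclei had 92.3 CPM (51.7 to 152) of Sema7a, and the 3 of F/F had 0 UMIs of it. Within the upper-layer-like class Sema7a was highest in cluster 3, with Inhba and Rorb among its leading genes, where the levels were 95.7 and 96.3 CPM. Cluster 9 had 53.3 and 38.8 CPM and cluster 11 had 36.7 and 48.6 CPM.

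Of the plexins, A2 and A4 had a class clear of the next in both libraries. Plxna4 had 2817 CPM (2695 to 2943) in NCKO and 2894 CPM (2748 to 3045) in F/F migrating neuron-like nuclei, then 2548 and 2532 CPM in upper-layer-like nuclei. Layer 5-like nuclei were lower, with 442 and 513 CPM, as were layer 6-like nuclei, with 358 and 263 CPM. The name of the layer 5-like class is weak. Its own marker list summed to 4639 and 4979 CPM there, less than the 5763 and 5301 CPM in upper-layer-like nuclei. Its main cluster 8 scored log2 0.591 for that list, with 0 of its markers among the leading genes. The interneuron lineages differed as for Sema3a but the other way round, with 1482 and 1442 CPM in CGE-derived and 733 and 833 CPM in MGE-derived nuclei. Plxna2 was highest in migrating neuron-like nuclei at 1606 and 1649 CPM and ranged from 389 to 1039 CPM over the other neuron classes apart from Cajal-Retzius-like nuclei. Plxna1 and Plxna3 had no class clear of the next. Plxna1 had 73.7 and 50.7 CPM in mural-like nuclei, few in number, and Plxna3 had 52.0 and 53.1 CPM in intermediate progenitor-like nuclei.

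B-type plexins, receptors of class 4 ligands, had their highest levels in glial classes or microglia. For Plxnb1 and Plxnb2, no class lay clear of the next in either library. Plxnb1 had 54.8 and 49.9 CPM in radial glia or astrocyte-like nuclei, its highest class in NCKO, and 27.7 and 55.2 CPM in OPC-like nuclei, its highest class in F/F. In turn, Plxnb2 had 119 CPM (63.4 to 204) and 86.7 CPM (31.8 to 189) in microglia-like nuclei, which rested on 13 and 6 UMIs. Plxnb3 was found in OPC-like nuclei, which held 23 of its 24 NCKO UMIs and all 4 of its F/F UMIs. Plxnc1, the Sema7a receptor, had 128 and 126 CPM in radial glia or astrocyte-like nuclei and 123 and 163 CPM in subplate-like nuclei, among the earliest-born cortical neurons. Its highest class was meningeal-like in NCKO, at 153 CPM, and subplate-like in F/F. Plxnd1, the Sema3e receptor, had 148 CPM (94.7 to 220) in the 50 NCKO endothelial-like nuclei and 1 UMI in the 3 of F/F. Its highest of the 17 classes was Cajal-Retzius-like in NCKO and microglia-like in F/F. The F/F microglia-like level, 57.8 CPM (15.7 to 148), rested on 4 UMIs, and microglia-like NCKO nuclei had 0 UMIs. Plxnd1 had 51.6 and 47.8 CPM in Cajal-Retzius-like nuclei and 43.6 and 45.2 CPM in striatal-like nuclei. Of the striatal-like clusters, cluster 2, led by Ebf1 and with Tac1 among its leading genes, had 60.7 and 66.9 CPM. Cluster 5, with Drd2 and Penk among its leading genes, had 15.8 and 16.0 CPM of Plxnd1, in both libraries less than in cluster 2.

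The neuropilins were highest in the same class. Nrp1 had 1597 CPM (1517 to 1679) in NCKO and 1994 CPM (1885 to 2108) in F/F hippocampal-like nuclei, followed by microglia-like nuclei with 1034 and 679 CPM. Nrp2 had 713 CPM (660 to 768) and 606 CPM (546 to 670) in hippocampal-like nuclei, followed by subplate-like nuclei with 284 and 238 CPM. Upper-layer-like nuclei had 264 and 372 CPM of Nrp1, and layer 6-like nuclei had 156 and 202 CPM. Within the upper-layer-like class Nrp1 ran from 93.7 CPM in cluster 3 to 1606 CPM (1401 to 1832) in the small cluster 36 of the NCKO library. In the F/F library it ran from 84.3 CPM in cluster 6 to 1392 CPM (1256 to 1539) in cluster 36. Unnamed cluster 7, with Tafa1, Trps1 and Grik1 as leading genes, had 589 and 578 CPM of Nrp2 and held 41.4% of all NCKO and 36.9% of all F/F UMIs of Nrp2, in 5.52% and 3.12% of the kept nuclei.

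Compared over all kept nuclei, no gene of the group differed past 1.5-fold. Ratios are log2 of (CPM + 5) in NCKO over (CPM + 5) in F/F nuclei, which understates the change of low genes, and a gene was measured where its UMIs in the libraries summed to 50 or more. Of the 30 genes 28 reached that minimum, and 0 of the 28 were past 1.5-fold, where 1.21% of all 17161 genes were. The median log2 ratio was -0.01 for the 28 genes and 0.02 for all genes. Nrp2 was the furthest above 0, with 117 CPM in NCKO and 82.5 CPM in F/F nuclei, a ratio of 1.42 (1.352 to 1.496). Cluster 7 held 541 NCKO and 191 F/F nuclei, and its own Nrp2 ratio was 1.02 (0.938 to 1.11). When each cluster was given its F/F weight, which was chosen after seeing the data, the log2 ratio of Nrp2 over all nuclei was 0.15 in place of 0.48. Sema5b was the furthest below 0, with 71.0 and 89.8 CPM, a ratio of 0.791 (0.749 to 0.835). In nuclei pooled over classes, fewer cells of a type and less RNA per cell cannot be told apart.

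Within classes, the comparison covered the 11 populations that had 100 nuclei or more on both sides, which gave 215 pairs of gene and population over the minimum. In 29 of these pairs the ratio was past 1.5-fold, 15 higher and 14 lower in NCKO. Over all genes 7.52% of 84413 such pairs were past it, 4.03% higher and 3.49% lower. In all 29 pairs the counting interval of the ratio excluded 1. They involved 12 of the 30 genes. Under every alternative of processing that gave a value 8 of the 29 pairs stayed past 1.5-fold, and 21 fell short of it under at least 1. The 8 were Sema5b in hippocampal-like and migrating neuron-like nuclei, Sema5a in CGE-derived nuclei, Sema3c in radial glia or astrocyte-like nuclei, Plxnc1 in hippocampal-like nuclei, Sema3a and Sema3e in cycling eminence progenitor-like nuclei and Sema3e in layer 5-like nuclei. The other 18 genes, among them Plxna1, Plxna2, Plxna3, Plxnb1, Plxnb2, Plxnd1 and all class 4 ligands except Sema4d, were past 1.5-fold in no population where they were measured. Of these 18 only Plxna2 was measured in all 11 populations. Plxnd1 was measured in 2, Sema3d in 3, and Plxna1, Plxnb2, Sema3f, Sema4a, Sema4c, Sema4f and Sema6b in 5. Sema3g and Plxnb3 were under the minimum in each of the 11.

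**Figure D2:**
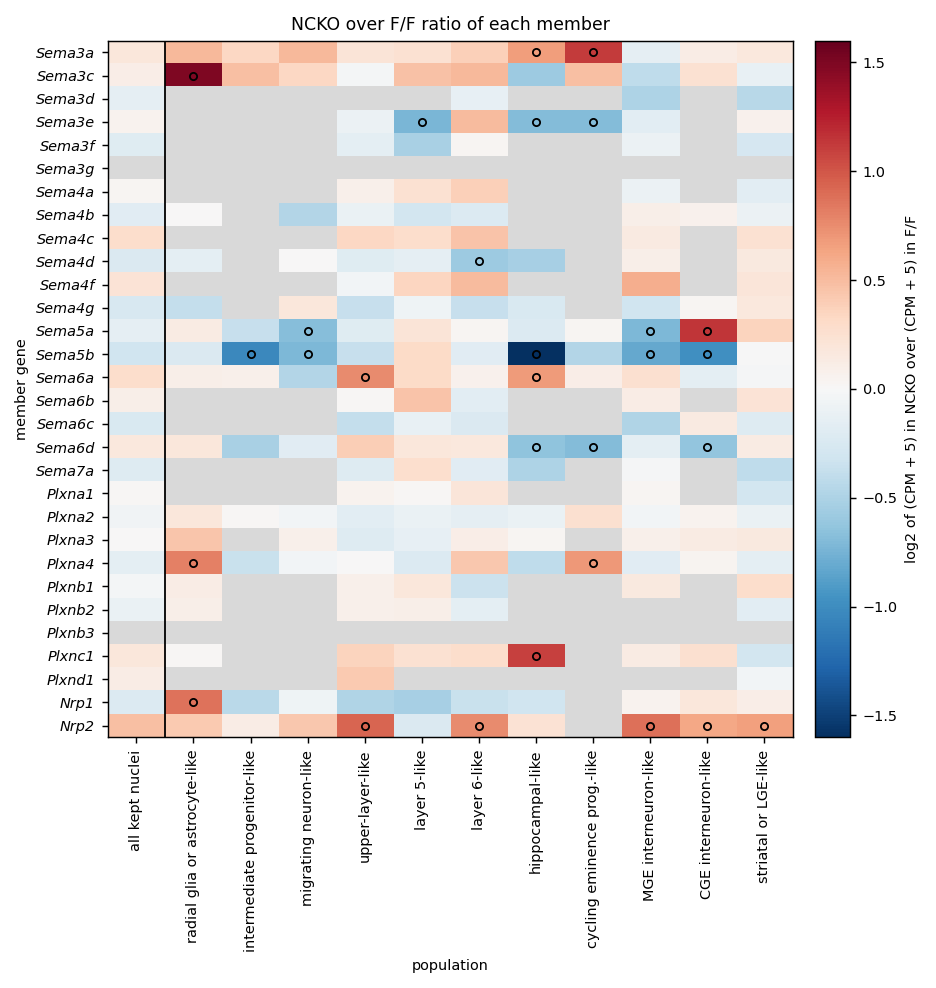
Log2 of (CPM + 5) in NCKO over (CPM + 5) in F/F nuclei for each gene (rows) over all kept nuclei and in 11 populations (columns), red where higher in NCKO and blue where lower. Grey cells had under 50 UMIs and circles mark ratios past 1.5-fold, of which Nrp2 has 5 in red and Sema5b 5 in blue.

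Nrp2, the co-receptor best known for binding Sema3f, was higher past 1.5-fold in NCKO nuclei of 5 populations. In upper-layer-like nuclei it had 32.3 CPM (28.6 to 36.2) in NCKO and 14.6 CPM (12.03 to 17.62) in F/F, a ratio of 2.21 (1.77 to 2.77). It had 45.6 and 25.0 CPM (1.82, 1.44 to 2.33) in layer 6-like nuclei. Interneurons had 66.7 and 34.0 CPM (1.96, 1.49 to 2.61) in the MGE-derived and 109 and 69.6 CPM (1.57, 1.11 to 2.24) in the CGE-derived class. Striatal-like nuclei had 25.6 and 14.3 CPM (1.79, 1.25 to 2.58). In hippocampal-like nuclei, its highest class, the ratio was 1.18 (1.04 to 1.34), and in layer 5-like nuclei the level was 30.6 CPM in NCKO and 36.7 CPM in F/F (0.833, 0.612 to 1.14). The log2 ratio of Nrp2 was above 0 in 9 of the 10 populations in which it was measured. These populations come from the same 2 libraries and are no replicates. How many of all genes lie to one side in as many populations was not computed. The Nrp2 gene lies on the plus strand at chr1:62703285-62818695 (GRCm38) and overlaps a gene on the other strand. Whether counting used strand is not stated, and whether reads of that other gene entered the counts was not checked. Such an overlap is found for 12 of the 30 genes, Sema5b and Sema5a among them.

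By cluster, the Nrp2 difference was uneven. In the upper-layer-like class the ratio was 2.30 (1.31 to 4.24) in cluster 11 and 7.16 (2.56 to 24.7) in the small cluster 36, but 1.31 (0.940 to 1.86) in cluster 6 and 0.799 (0.429 to 1.49) in cluster 9, both within counting error. Cluster 6 had 60.6 CPM of Nrp2 in NCKO, second to cluster 36, and 46.2 CPM in F/F, the highest of the class there, and held 583 NCKO and 157 F/F nuclei. Cluster 3, with 7.36 and 3.64 CPM of Nrp2, held 321 and 575 nuclei. Weighting these clusters by their F/F shares put the log2 ratio of Nrp2 in the class at 0.54 in place of 0.93, no longer past 1.5-fold, and all deposited barcodes put it at 0.50. The MGE-derived clusters 4 and 13 had Nrp2 ratios of 3.26 (2.13 to 5.20) and 1.32 (0.870 to 2.003), and thinning each nucleus to 2000 UMIs put the log2 ratio of the class at 0.28 in place of 0.88. In layer 6-like cluster 1 it was 2.39 (1.36 to 4.46), while cluster 40, with 297 and 211 CPM of Nrp2, held 79 NCKO and 5 F/F nuclei. The layer 6-like log2 ratio of 0.76 was 0.41 with F/F cluster weights and 0.31 with all deposited barcodes. The striatal-like one of 0.66 was 0.41 with a pseudocount of 20 CPM, and the CGE-derived one of 0.61 was 0.52 with clusters drawn from F/F nuclei. Summed levels of the migrating neuron marker list also differed in the interneurons, at 2705 and 1494 CPM in MGE-derived and 2333 and 1264 CPM in CGE-derived nuclei, with 5 and 4 of its 8 genes higher in NCKO. Its part in the Nrp2 ratios was not tested.

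**Figure D3:**
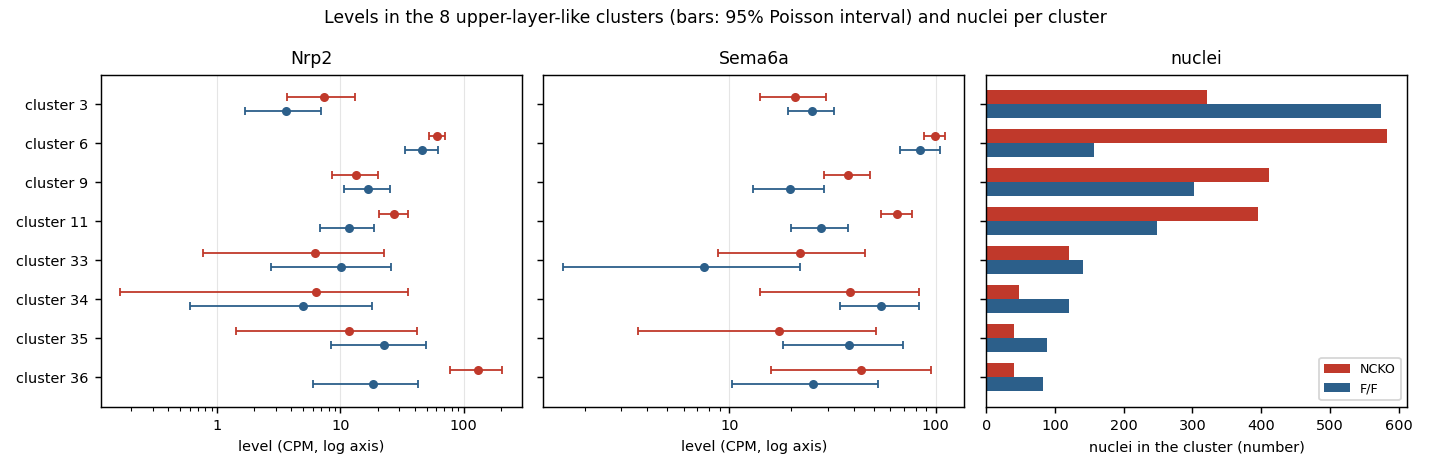
Levels of Nrp2 and Sema6a in CPM on a log axis, with 95% Poisson intervals, and numbers of nuclei in the 8 upper-layer-like clusters, NCKO in red above F/F in blue. Cluster 6 has the highest Sema6a level and more NCKO than F/F nuclei (583 and 157), and the low cluster 3 has fewer (321 and 575).

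Upper-layer-like nuclei had 2 of 27 measured genes past 1.5-fold, Nrp2 and Sema6a, both higher in NCKO, where 4.58% of 12590 genes were past it either way, 1.8% higher and 2.78% lower. Sema6a had 60.0 CPM (55.0 to 65.4) in NCKO and 33.3 CPM (29.4 to 37.7) in F/F nuclei, a ratio of 1.80 (1.55 to 2.10). By cluster its ratio was 2.34 (1.63 to 3.42) in cluster 11 and 1.89 (1.19 to 3.09) in cluster 9, and 1.18 (0.917 to 1.52) in cluster 6 and 0.826 (0.519 to 1.29) in cluster 3. Its log2 ratio of 0.76 was 0.35 with F/F cluster weights. Nrp1 was lower without passing 1.5-fold, with 264 and 372 CPM (0.710, 0.672 to 0.750), and by cluster its ratio was 0.593 (0.538 to 0.653) in cluster 9 and 1.53 (1.20 to 1.97) in cluster 6. Plxna4, at 2548 and 2532 CPM, had a ratio of 1.01 (0.987 to 1.03). The class's own marker list of 12 genes summed to 5185 CPM in NCKO and 6852 CPM in F/F nuclei, with 3 higher in NCKO, and the layer 5 list of 10 genes to 5763 and 5301 CPM, with 9 higher. Their part in the ratios was not tested.

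Sema5b, an inhibitory cue for growing axons, was lower past 1.5-fold in NCKO nuclei of 5 populations. Hippocampal-like nuclei had 30.4 CPM (20.4 to 43.7) in NCKO and 102 CPM (78.0 to 130) in F/F, a ratio of 0.300 (0.186 to 0.472). Intermediate progenitor-like nuclei had 97.5 and 204 CPM (0.477, 0.307 to 0.722). Migrating neuron-like nuclei had 158 and 263 CPM (0.602, 0.465 to 0.780). The levels were 43.3 and 90.3 CPM (0.479, 0.323 to 0.709) in CGE-derived and 25.8 and 49.3 CPM (0.523, 0.386 to 0.708) in MGE-derived interneuron-like nuclei. In radial glia or astrocyte-like nuclei, its highest class, the ratio was 0.849 (0.768 to 0.940). Striatal-like nuclei had 73.6 and 73.8 CPM (0.997, 0.840 to 1.18). The log2 ratio of Sema5b was below 0 in 10 of 11 populations, the exception being layer 5-like nuclei, with 24.9 and 19.1 CPM (1.30, 0.875 to 1.97). As for Nrp2, the populations are no replicates, and the share of all genes with such a count was not computed. The Sema5b log2 ratio in intermediate progenitor-like nuclei, -1.03, was -0.32 if no barcode was left out and -0.45 with clusters drawn from F/F nuclei. In the MGE-derived class the value of -0.82 was -0.50 at resolution 2, and in the CGE-derived class -0.98 was -0.56 without removing doublets.

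**Figure D4:**
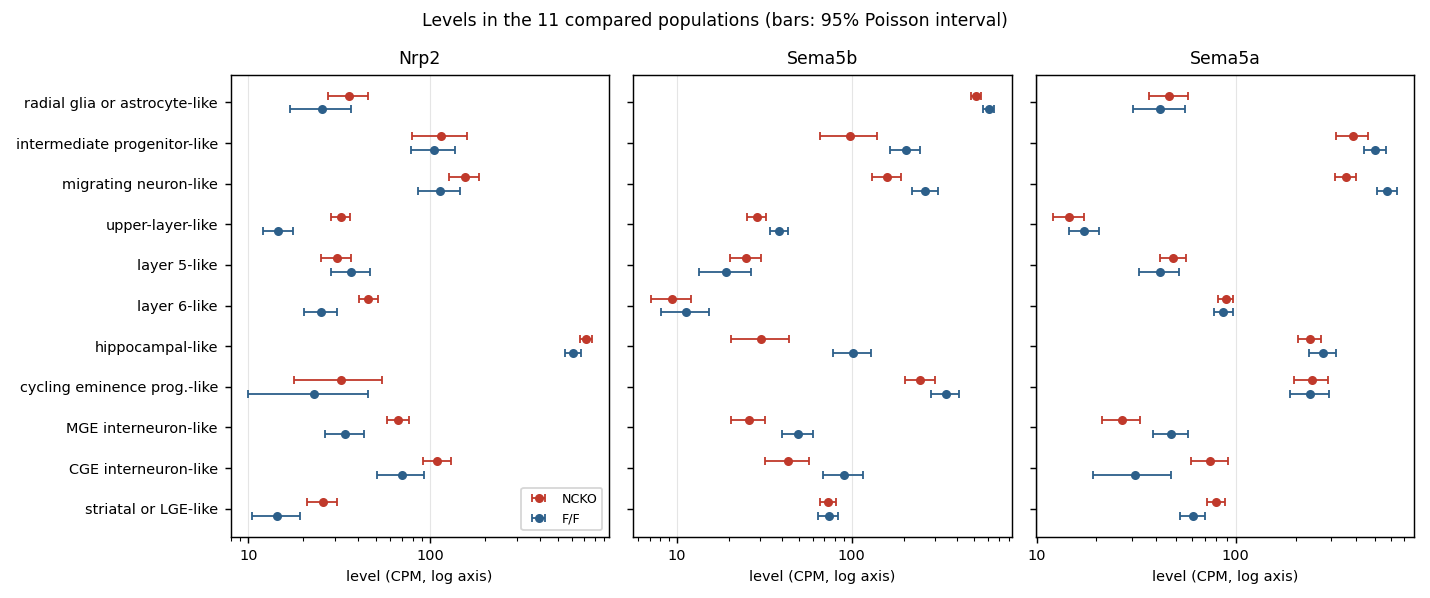
Levels of Nrp2, Sema5b and Sema5a in CPM on a log axis in the 11 compared populations, NCKO in red above F/F in blue, with 95% Poisson intervals. Nrp2 lies to the right in NCKO in 9 of the 10 measured populations and Sema5b to the left in NCKO in 10 of 11. Sema5a lies on opposite sides in MGE-derived and CGE-derived interneuron-like nuclei. The populations come from the same 2 libraries and are no replicates.

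The promoter windows of these genes are shown because Nrp2 and Sema5b each passed 1.5-fold in 5 populations, more than any other gene of the group. They run from 250 bases before to 50 after the annotated start (RefSeq, GRCm38.p6), 5′ to 3′, with each CG dinucleotide in capitals. Menin is known as a scaffold of MLL histone methyltransferase complexes, which bind at CpG-rich promoters.
Nrp2, chr1:62703067-62703366, plus strand: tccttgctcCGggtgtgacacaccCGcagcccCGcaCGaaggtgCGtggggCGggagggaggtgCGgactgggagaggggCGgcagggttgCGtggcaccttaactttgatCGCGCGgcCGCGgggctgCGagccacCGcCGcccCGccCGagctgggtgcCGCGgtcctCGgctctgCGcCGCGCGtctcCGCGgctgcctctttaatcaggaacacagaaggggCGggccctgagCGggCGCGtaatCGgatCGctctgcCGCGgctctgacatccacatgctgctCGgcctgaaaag
Sema5b, chr16:35541112-35541411, plus strand: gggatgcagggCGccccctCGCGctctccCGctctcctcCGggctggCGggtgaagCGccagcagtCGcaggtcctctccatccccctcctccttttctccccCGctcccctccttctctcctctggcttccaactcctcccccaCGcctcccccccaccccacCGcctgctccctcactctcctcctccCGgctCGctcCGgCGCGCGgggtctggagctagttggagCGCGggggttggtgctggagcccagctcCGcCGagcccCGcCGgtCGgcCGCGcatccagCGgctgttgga
The Nrp2 window held 37 CG and the Sema5b window 27. As many or more were found in 5.58% and 15.5% of all 32851 windows of this length, whose median was 7. The 26 genes of the group with a window had a median of 23, from 2 in Sema3a to 42 in Sema3c. The Sema3a window begins at chr5:13396534, inside a gene whose GENCODE start is 13125414, so its count is that of an internal start. The Sema4d window, with 3 CG, also lies inside its gene. Nothing was measured at these windows, and whether CG content goes with the ratios was not tested.

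Sema5a, the other class 5 ligand, differed in opposite directions between interneuron lineages. CGE-derived nuclei had 74.5 CPM (59.6 to 92.0) in NCKO and 31.1 CPM (19.2 to 47.5) in F/F, a ratio of 2.40 (1.47 to 4.07). MGE-derived nuclei had 26.8 CPM (21.4 to 33.1) and 47.3 CPM (38.3 to 57.8), a ratio of 0.565 (0.417 to 0.765), and both of their clusters were lower, at 0.609 (0.431 to 0.864) in cluster 4 and 0.329 (0.144 to 0.686) in cluster 13. Migrating neuron-like nuclei had 356 and 577 CPM (0.618, 0.520 to 0.734), with 0.655 and 0.569 in clusters 0 and 23. The MGE-derived log2 ratio of -0.72 was -0.30 without removing doublets and -0.20 if no barcode was left out. The migrating one of -0.69 was -0.25 at 2000 UMIs per nucleus.

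CGE-derived interneuron-like nuclei thus had 4 of 15 measured genes past 1.5-fold, against 9.65% of 5844 genes. Sema5a and Nrp2 were higher, as were 6.21% of all genes, and Sema5b and Sema6d lower, as were 3.44%. Sema6d had 205 and 321 CPM there (0.639, 0.529 to 0.772), and its log2 ratio of -0.63 was -0.42 without removing doublets. MGE-derived nuclei had 3 of 26, against 6.66% of 9488 genes. Nrp2 was higher, as were 3.52% of all genes, and Sema5a and Sema5b lower, as were 3.14%. Sema3a, described above for that class, had a ratio near 1, at log2 -0.14, as did Plxna4 in the CGE-derived class, at 0.04.

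In radial glia or astrocyte-like nuclei 3 of 17 measured genes were past 1.5-fold, against 10.5% of 8564 genes, 6.29% higher and 4.24% lower. All 3 were higher in NCKO and were a ligand, a plexin and a neuropilin. Sema3c had 67.8 CPM (56.2 to 81.1) in NCKO and 20.9 CPM (13.2 to 31.3) in F/F nuclei, a ratio of 3.25 (2.07 to 5.32). Plxna4 had 361 and 203 CPM (1.77, 1.52 to 2.07). Nrp1 had 127 and 67.2 CPM (1.88, 1.44 to 2.49). Of the 3 clusters in this class, Plxna4 was higher in all, with ratios of 1.74, 1.65 and 1.98 in clusters 14, 22 and 25 and intervals that excluded 1. Sema3c was higher in clusters 14 (3.92, 2.01 to 8.53) and 25 (5.53, 2.15 to 18.1) and within counting error in cluster 22 (1.17, 0.478 to 3.13). Nrp1 was higher in clusters 14 (3.14, 1.91 to 5.42) and 22 (2.15, 1.30 to 3.71) and not in cluster 25 (0.953, 0.592 to 1.54).

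**Figure D5:**
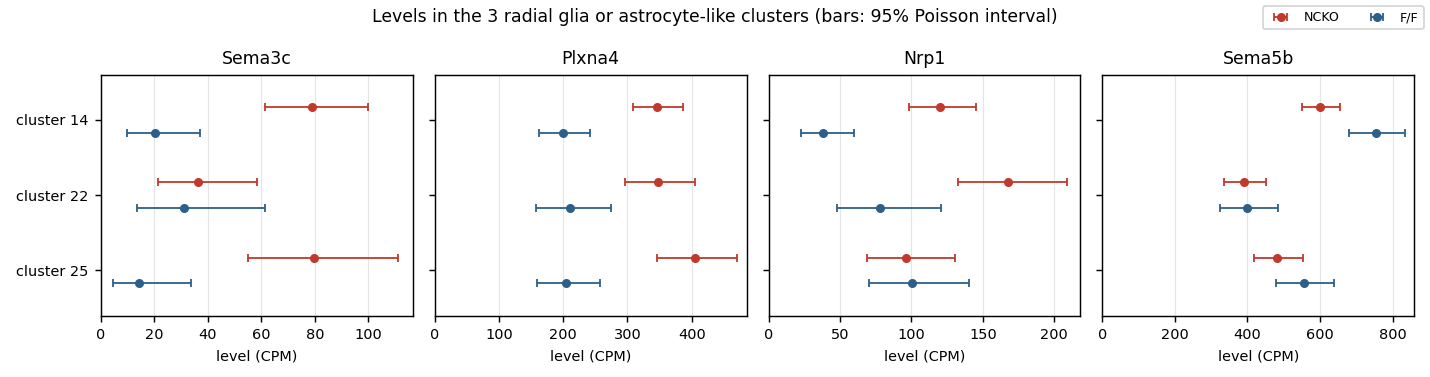
Levels of Sema3c, Plxna4, Nrp1 and Sema5b in CPM in the 3 radial glia or astrocyte-like clusters, NCKO in red above F/F in blue, with 95% Poisson intervals. The intervals of Plxna4 do not overlap in any of the 3 clusters, those of Nrp1 overlap in cluster 25 and those of Sema3c in cluster 22.

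All 3 of these genes were high in newborn neurons, where Sema3c had 1022 and 809 CPM, Plxna4 2817 and 2894 CPM and Nrp1 555 and 583 CPM in migrating neuron-like nuclei. Summed over 8 genes, the migrating neuron marker list had 1524 CPM in NCKO and 1092 CPM in F/F radial glia or astrocyte-like nuclei, with 6 of 8 higher in NCKO. The upper-layer list had 1896 and 1903 CPM, the intermediate progenitor list 202 and 215 CPM, and the choroid or ependymal list 202 and 1323 CPM. The part of these cells in the ratios was not tested. Without removing doublets the log2 ratios were 0.71 for Sema3c in place of 1.49, 0.52 for Plxna4 in place of 0.81 and 0.41 for Nrp1 in place of 0.87, so Plxna4 and Nrp1 were no longer past 1.5-fold.

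Hippocampal-like nuclei had the most genes past 1.5-fold, 6 of 16 measured, against 12.6% of 5186 genes, 7.37% higher and 5.21% lower. Of the 6 genes 3 were higher and 3 lower. Besides Sema5b, Sema6d was lower with 728 CPM (674 to 784) in NCKO and 1142 CPM (1059 to 1229) in F/F nuclei (0.637, 0.573 to 0.708), and Sema3e was lower with 77.6 and 129 CPM (0.602, 0.433 to 0.836). Plxnc1 was higher with 84.9 and 37.0 CPM (2.29, 1.43 to 3.82), Sema6a with 184 and 113 CPM (1.64, 1.23 to 2.19) and Sema3a with 74.4 and 45.1 CPM (1.65, 1.05 to 2.66). This class was 1 cluster of 195 NCKO and 118 F/F nuclei. Its own marker list summed to 5085 CPM in NCKO and 7324 CPM in F/F nuclei, with 3 of its 8 genes higher in NCKO, and what part this has in the ratios was not tested. The log2 ratios were 0.31 for Sema6a in place of 0.69 and -0.28 for Sema3e in place of -0.70 at 2000 UMIs per nucleus, and -0.42 for Sema6d in place of -0.65 with clusters drawn from F/F nuclei. The Sema3a value of 0.67 was 0.54 with a pseudocount of 20 CPM.

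Cycling eminence progenitor-like nuclei were named for the dividing precursors of interneurons and striatal neurons. They had 4 of 9 measured genes past 1.5-fold, against 13.3% of 3637 genes, 7.26% higher and 6.05% lower. Sema3a was higher with 174 CPM (137 to 218) in NCKO and 77.7 CPM (51.2 to 113) in F/F nuclei, and Plxna4 with 760 and 466 CPM (1.63, 1.35 to 1.98). Sema6d was lower with 176 and 288 CPM (0.612, 0.448 to 0.833), and Sema3e with 69.5 and 115 CPM (0.604, 0.363 to 0.995). The interval of Sema3e came close to 1. The next-best list in naming this class was that of intermediate progenitors, at log2 3.15 against 3.99 for its own. That list summed to 1328 CPM in NCKO and 1147 CPM in F/F nuclei, with 4 of 8 genes higher in NCKO. Whether dividing cortical precursors were among these nuclei was not tested. The MGE-derived interneuron list summed to 2607 CPM in NCKO and 1714 CPM in F/F nuclei, with 8 of 11 genes higher in NCKO, and the CGE-derived list to 1694 and 1116 CPM, with 5 of 10 higher. The Cajal-Retzius list summed to 64.9 and 259 CPM, with 1 of 8 higher. The part of these shifts in the ratios was not tested. The log2 ratio of Plxna4, 0.70, was 0.21 without removing doublets and 0.19 if no barcode was left out, and that of Sema6d, -0.69, was -0.47 with the 30 genes among those clustered.

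Sema3e differed in layer 5-like and Sema4d in layer 6-like nuclei. Layer 5-like nuclei had 1 of 26 measured genes past 1.5-fold, against 5.07% of 9431 genes, 2.31% higher and 2.76% lower. This was Sema3e, lower with 56.5 CPM (49.1 to 64.8) in NCKO and 97.4 CPM (83.8 to 112) in F/F nuclei. Its ratio was 0.459 (0.368 to 0.573) in the main layer 5-like cluster 8 and 2.97 (1.15 to 9.72) in cluster 48, which had 34 and 15 nuclei. In layer 6-like nuclei Sema3e had 91.1 and 62.3 CPM, higher in NCKO without passing 1.5-fold at log2 0.51. Layer 6-like nuclei had 2 of 27 genes past 1.5-fold, against 4.51% of 11166 genes, 2.44% higher and 2.08% lower. They were Nrp2, given above, and Sema4d, lower with 48.2 and 75.0 CPM (0.643, 0.544 to 0.761). The ratio of Sema4d was below 1 in all 6 layer 6-like clusters, from 0.392 to 0.772, but its log2 ratio of -0.59 lay at the threshold and was not past it under 8 of 12 alternatives.

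In the remaining populations few genes passed. Migrating neuron-like nuclei had 2 of 14, Sema5a and Sema5b, both lower, against 13% of 4346 genes, 6.76% higher and 6.28% lower. Intermediate progenitor-like nuclei had 1 of 10, Sema5b, lower, against 16.6% of 3322 genes, 8.25% higher and 8.37% lower. Striatal-like nuclei had 1 of 28, Nrp2, higher, against 4.06% of 10839 genes, 2.2% higher and 1.86% lower. Counts near these shares of all genes say nothing particular about the group. Receptors read out in newborn neurons had ratios near 1 there: Plxna2 had a log2 ratio of -0.04, Plxna4 -0.04 and Nrp1 -0.07 in migrating neuron-like nuclei.

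The wider pathway was read from 4 lists with 60 genes: partner receptors, other neuropilin ligands, collapsin response mediators with MICALs, and plexin-bound GTPases, GEFs, kinases and scaffolds. Over all nuclei 58 were measured, of which 2 were higher past 1.5-fold, where 0.42% of all genes were, and 1 was lower, where 0.787% were. The median log2 ratio was 0.05. Vegfa, the angiogenic factor that competes with semaphorins for neuropilins, was the lower one, with 37.6 CPM in NCKO and 97.5 CPM in F/F nuclei (0.386, 0.362 to 0.411). It was lower past 1.5-fold in all 11 populations, from 0.293 (0.172 to 0.483) in migrating neuron-like to 0.529 (0.299 to 0.922) in cycling eminence progenitor-like nuclei, and its highest class, radial glia or astrocyte-like nuclei, had 106 and 308 CPM. The higher ones, Flt1 with 18.3 and 7.68 CPM and Kdr with 3.70 and 0.559 CPM, are endothelial VEGF receptors and markers of the endothelial-like nuclei, which numbered 50 in NCKO and 3 in F/F. Kdr rested on 15 UMIs in F/F nuclei.

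Of the intracellular genes, Cfl1, the actin-severing factor cofilin, was higher past 1.5-fold in 4 populations, the CGE-derived, MGE-derived, intermediate progenitor-like and radial glia or astrocyte-like ones, and had 57.4 and 39.6 CPM over all nuclei. Radial glia or astrocyte-like nuclei had the most list genes higher, 7 of 41 measured, where 6.29% of all genes were, with a median log2 ratio of 0.17 for the lists. In upper-layer-like nuclei 1 of 47 was higher, Met, a receptor that associates with B-type plexins, where 1.8% of all genes were, and 1 was lower, Vegfa, where 2.78% were. None of the 8 collapsin response mediators and MICALs, which relay semaphorin signals to microtubules and actin, was past 1.5-fold over all nuclei.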

How the data were processed

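Nuclear RNA was measured with the 10x Genomics Chromium 3' chemistry, per the labels' protocols. The authors deposited raw UMI counts in whole numbers for each gene and barcode. Per the file headers they were written by Cell Ranger 6.1.0. The submitters' processing notes also name Seurat and build mm10. The files held 10750 NCKO and 6477 F/F barcodes with 50115162 and 30116311 UMIs, of which 15 barcodes occur in both.

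A barcode was dropped if it had fewer than 500 genes (19 and 10) or a mitochondrial share above 5% (0 and 1). Doublet scores came from simulated ones, 2 per nucleus, and the highest 0.8% per 1000 barcodes were removed (924 and 336). Nuclei scaled to 10000 UMIs were clustered jointly on 2000 variable genes without the 30 genes and without cell cycle genes, mitochondrial genes, haemoglobin genes or sex-linked genes, with 30 principal components, 20 neighbours and Leiden resolution 1 (Python 3.11.15, numpy 2.4.6, scipy 1.17.1, leidenalg 0.10.2, scikit-learn 1.9.0). A cluster took the class whose markers had the highest geometric-mean fold against the other clusters, at log2 0.5 or more and 0.1 above the next. It needed 3 markers raised 1.5-fold. Among its 10 leading genes no other class could have more markers than its own class. Clusters of 100 nuclei or more with a next class within 0.2 were split once at resolution 0.5. Radial glia and astrocyte lists were merged. This rule was settled after clusters had been seen.

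UMIs were summed per library and class. Of symbols on several lines (36), the line with more UMIs was used. The ratio and doublet steps were tested on simulated data. Members, lists and the naming of genes past 1.5-fold were chosen with earlier results of these data known; all 30 genes are accounted for, and pathway genes are named where past 1.5-fold over all nuclei or in at least 3 populations, and Met was added after its value was seen. All 30 genes were found in GENCODE vM21 (GRCm38). None overlaps a coding gene, and 12 overlap a gene on the other strand. Alternatives were other pseudocounts, minimum UMIs, scaling, filters, clusterings, cluster weights and 2000 UMIs per nucleus.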

Additional observations from a re-analysis of the deposited data

Results flagged for a closer look

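Sema5a is given again because its ratio passed 1.5-fold in opposite directions between populations. The log2 ratio of NCKO over F/F was 1.14 in CGE-derived interneuron-like nuclei, -0.72 in MGE-derived interneuron-like nuclei and -0.69 in migrating neuron-like nuclei. With 1 library per label the difference between populations was not tested. The counting intervals of the ratios were 1.47 to 4.07 in CGE-derived and 0.417 to 0.765 in MGE-derived nuclei. That they do not overlap adds nothing, since the gene was picked for passing 1.5-fold in opposite directions.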

How the results depend on the processing

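None of the ratios of the 29 pairs past 1.5-fold changed direction under the alternatives run. Other single ratios, such as those by cluster, are not given under them. The median log2 ratio of the group over all nuclei, -0.01, was 0.01 with no minimum of UMIs, and that in upper-layer-like nuclei, -0.03, lay between -0.08 and 0.06. Of the recomputed ratios of the 29 pairs and the medians over the group, 322 stayed within counting error of the value given and 27 ratios moved beyond it. Of the 29 pairs 8 stayed past 1.5-fold under every alternative that gave a value. Some pairs have no value with a minimum of 200 UMIs or at 2000 UMIs per nucleus, where the gene fell under the minimum. The number of genes of the group higher past 1.5-fold in upper-layer-like nuclei, 2 as reported, was 0 with all deposited barcodes and 1 with clusters weighted as in F/F. Over all nuclei it was 1 (as reported 0) with nuclei thinned to 2000 UMIs. The number of pathway genes higher over all nuclei, 2 as reported, was 0 with a pseudocount of 20 CPM and 1 with no doublet removal. The cause was not tested. The log2 ratio of Nrp2 in upper-layer-like nuclei ran from 0.50 to 1.09 over 12 alternatives, that of Nrp2 in MGE-derived nuclei from 0.28 to 1.10 and that of Sema5b in hippocampal-like nuclei from -1.71 to -1.27 over 10. The highest class was kept in both libraries by 22 of 30 genes with no doublet removal, 25 with the genes among those clustered, 22 at resolution 2 and 12 with 2000 UMIs per nucleus, which leaves out 1431 NCKO and 703 F/F nuclei. Scaling by a median of ratios moved the median of all genes by at most 0.08 (log2). No paired analysis was possible because each label has 1 library. Depth limits the small classes: of 30 genes, 9 reached 50 UMIs in cycling eminence progenitor-like and 10 in intermediate progenitor-like nuclei.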
